A study of Mus musculus with 2 samples.

Results

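The FANTOM3 clones examined here were the 3342 entries, of 37072 in the lncRNA table of primary mouse hepatocytes, whose clone name begins with 0, 1 or 2. They were taken by name, and earlier results of these data were known when this set of names was chosen. The cells came from the livers of male wild-type (WT) C57BL/6J mice, which were 5 weeks of age when obtained according to the methods. Their age when the cells were taken, after the weeks of injection, is not given in the sources used here. One group received intraperitoneal oil and the other intraperitoneal CCl4, given as a 20% solution in mineral oil at 2.5 ml of CCl4 per kilogram, 2 times per week. The labels give 8 weeks of injection and the methods 4. Hepatocytes were released by enzymatic perfusion and collected on a density gradient, and each group was sequenced as 1 library. The number of mice behind a library is not given in the sources used here. With 1 library per group there was no replicate check, and no p-value was computed.

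FANTOM3 was a catalogue of full-length mouse cDNAs cloned by RIKEN, and many of its transcripts had no obvious open reading frame when they were annotated. The first 4 characters of a clone name stand for the plate series of the cDNA library it was picked from, so that fantom3_1700 clones came from testis, fantom3_2900 from hippocampus, fantom3_1810 from pancreas and fantom3_1300 from liver. Later gene annotation adopted many clone names as symbols or synonyms, ending in Rik, and some of these genes code for protein while others are lncRNA genes. CCl4 is converted to a radical by hepatocyte cytochrome P450, and repeated doses injure hepatocytes and lead to liver fibrosis. In fibrosis, hepatic stellate cells turn into collagen-producing myofibroblasts.

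The clone sequences were not used here. Of the 3342 clones, 1722 carried the name of 1 RefSeq gene, and 1371 of these had an entry in a RefSeq promoter table of build GRCm38.p6. The promoters of 6 genes are printed to show what lies at the starts of genes whose clones differed most between the libraries, taken from the named clones with an entry in that table. Each window is the first that the table lists for the gene. It runs from 250 bases before to 50 bases after a transcript start, which need not be the outermost start of the gene, 5′ to 3′ on the gene's strand. Capitals mark matches on either strand to 3 core promoter motifs that share no letters in these windows. The letters TATAAA, known as the TATA box, were present in 13.6% of the 32851 promoters in the table. The letters GGGCGG, known as the GC box, were present in 35.7%. The CCAAT box, searched as these 5 letters, was present in 37.4%. The clones of the first 3 genes were lower in the CCl4 library, and those of the last 3 were higher. The promoters lie at chr7:14446538-14446837 on the minus strand (Sult2a8), chr2:5012742-5013041 on the minus strand (Mcm10), chr7:65802787-65803086 on the plus strand (1810008I18Rik), chr3:53041297-53041596 on the plus strand (Lhfp), chr9:20976744-20977043 on the minus strand (S1pr2) and chrX:133908175-133908474 on the plus strand (Srpx2).
Sult2a8: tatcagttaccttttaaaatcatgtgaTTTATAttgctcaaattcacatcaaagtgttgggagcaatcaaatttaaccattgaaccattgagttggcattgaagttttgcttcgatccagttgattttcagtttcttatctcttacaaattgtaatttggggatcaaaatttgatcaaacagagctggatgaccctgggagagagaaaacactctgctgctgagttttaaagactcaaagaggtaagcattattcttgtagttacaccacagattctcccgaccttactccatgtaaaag
Mcm10: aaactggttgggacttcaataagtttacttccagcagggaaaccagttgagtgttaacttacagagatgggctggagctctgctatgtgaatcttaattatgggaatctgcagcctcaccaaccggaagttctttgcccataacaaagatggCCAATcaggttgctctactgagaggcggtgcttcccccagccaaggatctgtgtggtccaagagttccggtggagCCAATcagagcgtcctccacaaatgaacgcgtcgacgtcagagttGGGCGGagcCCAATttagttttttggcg
1810008I18Rik: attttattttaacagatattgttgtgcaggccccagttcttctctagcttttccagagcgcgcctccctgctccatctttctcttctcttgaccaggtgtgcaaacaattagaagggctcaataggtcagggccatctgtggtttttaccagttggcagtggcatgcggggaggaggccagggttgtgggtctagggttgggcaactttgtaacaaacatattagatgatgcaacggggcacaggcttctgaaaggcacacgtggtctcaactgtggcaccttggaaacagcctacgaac
Lhfp: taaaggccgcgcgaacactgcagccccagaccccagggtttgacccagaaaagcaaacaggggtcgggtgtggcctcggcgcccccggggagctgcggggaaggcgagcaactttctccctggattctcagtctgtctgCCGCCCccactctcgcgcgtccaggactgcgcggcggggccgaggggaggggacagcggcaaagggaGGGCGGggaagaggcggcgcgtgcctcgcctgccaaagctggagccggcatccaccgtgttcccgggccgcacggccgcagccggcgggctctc
S1pr2: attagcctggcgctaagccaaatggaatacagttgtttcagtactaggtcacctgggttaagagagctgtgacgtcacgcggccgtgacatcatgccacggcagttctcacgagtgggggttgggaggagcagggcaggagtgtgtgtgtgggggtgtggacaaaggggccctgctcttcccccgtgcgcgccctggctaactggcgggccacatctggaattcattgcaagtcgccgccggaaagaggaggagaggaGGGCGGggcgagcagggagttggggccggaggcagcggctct
Srpx2: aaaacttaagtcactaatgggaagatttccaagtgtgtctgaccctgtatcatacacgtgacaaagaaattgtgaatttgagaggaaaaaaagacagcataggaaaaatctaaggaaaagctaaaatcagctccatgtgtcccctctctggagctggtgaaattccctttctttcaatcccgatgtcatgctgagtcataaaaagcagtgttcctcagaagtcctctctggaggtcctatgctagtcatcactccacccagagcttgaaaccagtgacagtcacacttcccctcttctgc

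The Sult2a8 window held 1 TATA box and no other of these motifs, at a GC content of 36.0%. The Mcm10 window held 3 CCAAT boxes and 1 GC box. The Lhfp window held 2 GC boxes at a GC content of 71.3%, and the S1pr2 window held 1 GC box at 62.0%. The Srpx2 and 1810008I18Rik windows held none of the 3 motifs. No motif was shared by all 6 windows. The Sult2a8 match lay near the 5′ end of its window, away from the transcript start. In the Mcm10 window the GC box and the last CCAAT box lay after the start. These are counts of letters anywhere in a window, and whether a match acts as a promoter element was not tested.

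Values were in RPKM, reads scaled by transcript length and library size, and values under 1 RPKM were listed as 0. A clone was called detected in a library at 1 RPKM or more. For ratios a listed 0 was set to 1 RPKM, so that the ratio of such a clone is a bound. A clone was called higher or lower when its CCl4 and oil values differed at least 2-fold, that is by 1 on the log2 scale. The annotated tables hold no reads. The counts of new lncRNAs gave totals of 62438200 reads for the oil and 70960800 for the CCl4 library, at which 1 RPKM on 1 kb is 62 and 71 reads. Counting error alone then gives a log2 ratio of a transcript of that length a 95% exact (Clopper-Pearson) interval of -0.50 to 0.53 at 1 RPKM and of -0.16 to 0.16 at 10 RPKM. Clone lengths were not given, and the interval covers neither biological nor preparation variation.

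The labelled cell type was checked on the mRNA table. Hepatocyte markers summed to 17385 RPKM in oil and to 10170 RPKM after CCl4, with 6 of 8 at least 2-fold lower. Over all mRNA entries compared, 16.6% were at least 2-fold higher and 5.22% lower. The 9 stellate cell or myofibroblast markers were all at least 2-fold higher, from a sum of 74.2 to 879 RPKM, and Pdgfrb was listed at 0 in oil. Kupffer cell or macrophage markers summed to 1209 and 3234 RPKM (5 of 6 higher). The exception was the Kupffer cell gene Clec4f, with 283 RPKM in oil and 255 RPKM in CCl4. Sinusoidal endothelial markers summed to 384 and 633 RPKM (1 of 5 higher) and cholangiocyte markers to 13.4 and 25.1 RPKM (1 of 4 higher, Sox9 at 0 in both). Lymphocyte markers summed to 6.49 and 10.7 RPKM (1 of 4 higher, Cd3e at 0 in both and Ms4a1 at 0 in oil). Erythroid markers summed to 2051 and 1413 RPKM (1 of 3 lower), and the 4 proliferation genes, with Ccnb1 at 0 in oil, rose from 5.75 to 31.0 RPKM. The marker lists thus differed between the libraries, and their part in the results on the clones was not tested. In such bulk RNA, fewer cells of a type and less RNA per cell cannot be told apart.

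Among the clones, 1407 (42.1%) were detected in oil and 1562 (46.7%) in CCl4. In both libraries 1365 clones were detected, 42 in oil alone and 197 in CCl4 alone. Over all lncRNA entries, 7615 were detected in both libraries, 474 in oil alone and 1665 in CCl4 alone. More entries in CCl4 alone than in oil alone was thus a feature of the whole lncRNA table. Most of the clones detected in 1 library lay close to the threshold. The median was 1.32 RPKM for the 42 and 1.46 RPKM for the 197, and 9 and 43 of them reached 2 RPKM. The remaining 33730 lncRNA entries were detected less often, 19.8% in oil and 22.9% in CCl4. FANTOM3 clones that begin with F were detected at 15.05% and 17.7%, and fantom3_493 clones at 13.3% and 14.6%. The clones thus stood between the other lncRNA entries and the mRNA entries, of which 54.9% and 59.9% were detected.

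The 28 plate series differed widely in how many clones were detected, and 16 of them had at least 20 clones detected in a library. Among these 16, the lowest share belonged to fantom3_1700, the testis series and the largest. In it 16.7% of 966 clones were detected in oil and 18.9% in CCl4. The hippocampus series fantom3_2900 followed among the 16, with 28.2% and 37.1% of 259 clones. The other 14 series lay between 47.7% and 68.8% in oil. Without the testis clones, 52.4% of the other 2376 clones were detected in oil and 58.0% in CCl4.

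Series from digestive organs were spread over this range. The small intestine series fantom3_2010 had 61.2% of 165 clones detected in oil and 62.4% in CCl4, the pancreas series fantom3_1810 54.2% and 59.4% of 155, the tongue series fantom3_2310 54.0% and 57.2% of 276, and the stomach series fantom3_2210 48.2% and 55.5% of 137. The share was higher in CCl4 in 14 of the 16 series. It was equal in fantom3_2600 at 68.8% of 32 clones. Among the 16, only in fantom3_2510, with 34 clones, was it lower, at 64.7% in oil and 58.8% in CCl4.

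**Figure D1:**
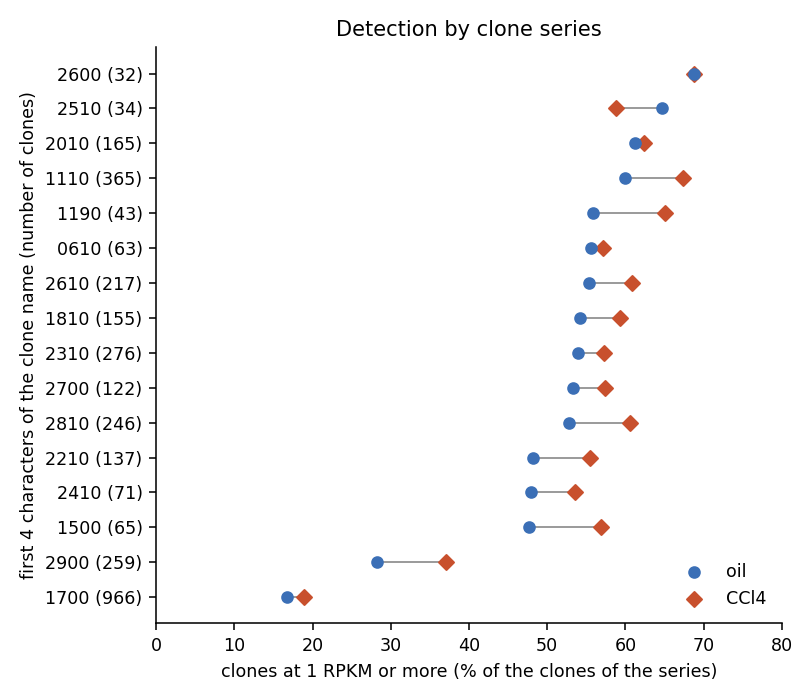
Percent of clones at 1 RPKM or more in the oil (circles) and CCl4 (diamonds) library for the 16 plate series with at least 20 clones detected in a library. The number of clones is in brackets. fantom3_1700 and fantom3_2900 stand below the other series, and 14 of the 16 diamonds lie to the right of their circles.

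Of the 1604 clones detected in a library, 193 (12.03%) were at least 2-fold higher in CCl4 and 61 (3.80%) at least 2-fold lower. Over all 9754 lncRNA entries compared, 10.9% were higher and 3.54% lower, so the shares among the clones were near the background. Of the 193, 150 had a value in both libraries and 43 were listed at 0 in oil, while 9 of the 61 were listed at 0 in CCl4. At 4-fold or more, 21 clones (1.31%) were higher and 10 (0.62%) lower, and at 8-fold or more 2 were higher and 1 lower. The shares of all lncRNA entries at these 2 cutoffs are not given here, so nothing particular to the clones is read from them. For the 1365 clones detected in both libraries the median log2 ratio of CCl4 over oil was 0.30, with quartiles of -0.12 and 0.67, and 755 (55.3%) lay within 0.5 of 0. The median was 0.27 over all lncRNA entries and 0.33 over 14854 mRNAs, so the whole table was shifted upwards. When the CCl4 values were scaled so that the median mRNA did not move, the clones' median became -0.03 and the counts 95 higher and 116 lower (all lncRNA entries, 506 and 704). The share of calls that were higher was 76.0% as deposited and 45.02% after this scaling.

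**Figure D2:**
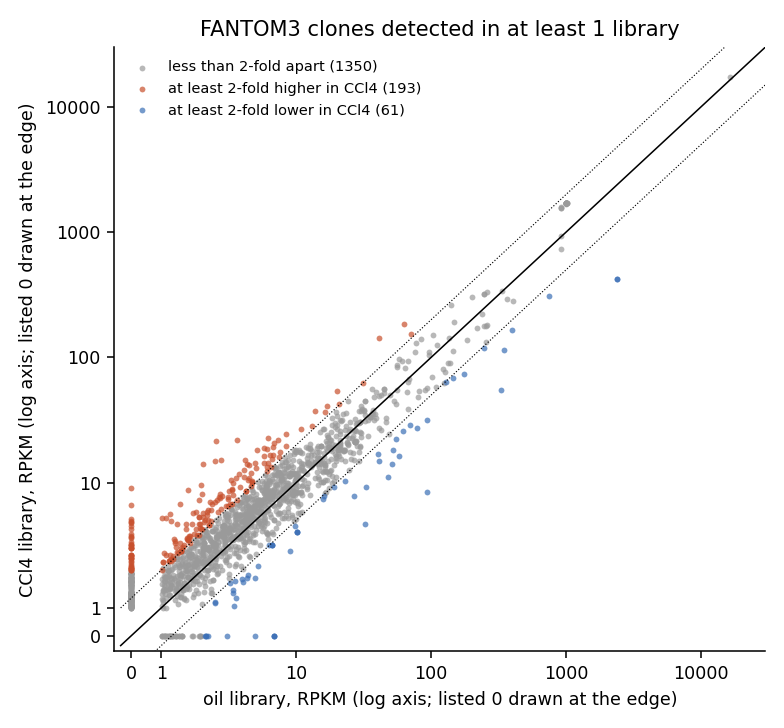
RPKM in the oil and CCl4 library for each of the 1604 clones detected in a library, on log axes. Points on an axis edge are listed at 0, the solid line marks equal values and the dotted lines a 2-fold difference. Of the 193 higher clones 17 reach 20 RPKM in a library, and of the 61 lower clones 26 do. The lower clones above 1000 RPKM are fantom3_2510038C20 and fantom3_1810074C23, which are not taken as separate observations.

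The direction of the calls varied with abundance. Among 472 clones whose larger value was from 2 to 5 RPKM, 92 (19.5%) were higher and 19 (4.03%) lower, and among 584 from 5 to 20 RPKM, 84 (14.4%) were higher and 16 (2.74%) lower. All lncRNA entries had 18.2% higher and 4.52% lower in the first of these ranges and 14.4% higher and 4.39% lower in the other, close to the clones. Among the 241 clones that reached 20 RPKM, 17 (7.05%) were higher and 26 (10.8%) lower. All lncRNA entries that reached 20 RPKM had 11.6% higher and 10.8% lower. The 307 clones whose larger value was under 2 RPKM could not be called by construction.

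The most abundant clone in both libraries was fantom3_2900019G12 of the hippocampus series, with 16557 RPKM in oil and 17308 RPKM in CCl4. It held 27.6% and 25.4% of the summed RPKM of the clones (60041 and 68255 RPKM). Its log2 ratio was 0.06, and -0.26 relative to the median mRNA, so it had no direction that held under both scalings. The 100 most abundant clones held 84.4% of the sum in oil and 84.3% in CCl4, and 86 clones were in both lists. The typical detected clone was far less abundant, with a median of 4.53 RPKM in oil and 5.03 RPKM in CCl4.

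The next clones in oil were fantom3_2510038C20, at 2409 RPKM in oil and 426 RPKM in CCl4, and fantom3_1810074C23, at 2391 and 422 RPKM. Both were 5.66-fold lower in CCl4 (log2 ratio -2.50). They ranked 2 and 3 among the clones in oil and 21 and 22 in CCl4. Neither carried the name of a RefSeq gene. With values and ratios this close, they are not taken as separate observations.

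In CCl4 the ranks after fantom3_2900019G12 were held by 17 clones from 8 plate series with nearly equal values, grouped because all lay within 15% of fantom3_2610303F11 in both libraries. They ranged from 913 to 1015 RPKM in oil and from 1573 to 1726 RPKM in CCl4, and their log2 ratios lay between 0.77 and 0.78. fantom3_2610303F11 had 1015 RPKM in oil and 1726 RPKM in CCl4. fantom3_2410021I09 had 1012 and 1722 RPKM, and fantom3_2700065K19 1012 and 1723 RPKM. The 3 clones fantom3_2200008E10, fantom3_2310030P07 and fantom3_2410015O09 shared the values 1007 and 1714 RPKM exactly. The remaining highest clones of the group were fantom3_2410024M20 (1009 and 1717 RPKM), fantom3_2700063K19 (1009 and 1719 RPKM) and fantom3_2400001D16 (1009 and 1718 RPKM). The group summed to 16840 RPKM in oil and 28728 RPKM in CCl4, and none of it was matched to a gene. In oil other clones, among them fantom3_2210401K01, stood within its range.

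Exact repeats were found elsewhere too. Of the compared clones, 88 in 39 groups had both values in common with another clone, which left 1555 distinct pairs of values. Most groups (30) were pairs, 10 spanned more than 1 plate series, and the largest held 4 clones. Counting identical values once gave 191 higher and 55 lower clones. Clones are therefore not independent counts of transcripts.

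The median log2 ratio was above 0 in all 16 plate series with at least 20 compared clones as deposited, from 0.03 in fantom3_1810 to 0.43 in fantom3_2610. Relative to the mRNA median of 0.33, series lay on both sides of 0. More clones were higher than lower in 13 of the 16 series. In fantom3_1110, 29 of 247 compared clones were higher and 7 lower, in fantom3_2810 23 and 4 of 151, in fantom3_1700 23 and 4 of 190, in fantom3_2610 17 and 2 of 134, in fantom3_2900 16 and 3 of 101 and in fantom3_2700 9 and 0 of 72. Over the 16 series, 4.35% to 16.7% of clones were higher and up to 13.2% lower, beside 10.9% and 3.54% of all lncRNA entries, and nothing particular to a series is read from these counts.

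Of the 16 series, 3 had more lower than higher clones. In the pancreas series fantom3_1810 there were 7 higher and 10 lower clones of 92, in the kidney series fantom3_0610 2 and 5 of 38, and in fantom3_2510 1 and 3 of 23. Among the 16, fantom3_1810 had the lowest median and the lowest 5th percentile. Small intestine clones (fantom3_2010) were nearly balanced at 12 higher and 9 lower of 109, and 6 of the lower clones formed 2 groups of 3 with the same values. Whether the series differ from each other was not tested, since the clones are not replicates.

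**Figure D3:**
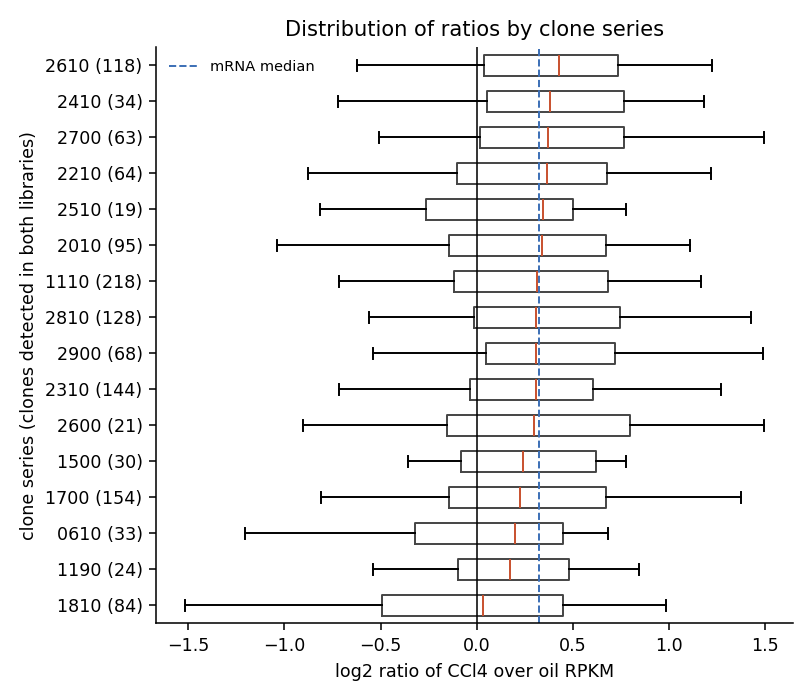
Log2 ratio of CCl4 over oil RPKM for clones detected in both libraries, by plate series, with the number of clones in brackets. Boxes span the quartiles with the median in red, and whiskers the 5th to 95th percentile. Every median lies above 0, from 0.03 in fantom3_1810 to 0.43 in fantom3_2610, and the dashed line marks the mRNA median of 0.33.

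In each of the 16 larger series the most abundant clone was taken by its mean RPKM over both libraries, so that another clone could be higher in 1 library. Outside fantom3_2510 and fantom3_1810 it differed by 1.71-fold or less. It was fantom3_0610024J22 in the kidney series (248 RPKM in oil and 319 in CCl4), fantom3_1700030E01 in the testis series (239 and 221), fantom3_2010002D23 in the small intestine series (248 and 179) and fantom3_1110001L04 in fantom3_1110 (407 and 283). In the cerebellum series it was fantom3_1500038L17 (77.1 and 132 RPKM), in fantom3_2810 fantom3_2810451C11 (994 and 1697) and in the stomach series fantom3_2210017P16 (999 and 1706), the last 2 being members of the group of nearly equal clones. In fantom3_1190 it was fantom3_1190001O17, the clone named for Pfdn5, a prefoldin subunit, with 55.7 and 87.8 RPKM. In fantom3_2600 it was fantom3_2600009A06, named for the RNA helicase gene Ddx5, with 27.98 and 25.8 RPKM. None of these reached a 2-fold difference, and among the 16 series only those led by fantom3_2510038C20 and fantom3_1810074C23 had such a leading clone.

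The liver series fantom3_1300 had only 10 clones and is described after its values were seen. Of the 10, 7 were detected in both libraries, none was higher and 2 were lower, beside 10.9% higher and 3.54% lower of all lncRNA entries. With 7 clones nothing is read from this count. fantom3_1300003J07 had 175 RPKM in oil and 73.4 RPKM in CCl4, and fantom3_1300003O18 62.4 and 26.0 RPKM. fantom3_1300007J06, named for the alanine aminotransferase gene Gpt, had 89.6 and 54.9 RPKM. Lower values in CCl4 were thus listed for the 3 liver clones most abundant in oil, an order that itself favours falls. In CCl4 fantom3_1300018I14 stood above fantom3_1300003O18. fantom3_1300011L04 (Lrrc3) had 9.39 and 5.55 RPKM, fantom3_1300006G11 (Ogfod2) 10.03 and 9.15 RPKM, and fantom3_1300003A18 (Wdr75) 2.55 and 2.44 RPKM. The only liver clone with a higher value in CCl4 was fantom3_1300018I14, with 21.4 and 30.9 RPKM.

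The 8 largest rises at 5 RPKM or more included 4 clones named for 1 RefSeq gene. fantom3_1110039C07, named for Srpx2, a secreted sushi-repeat protein, was listed at 0 in oil and had 9.07 RPKM in CCl4, at least 9.07-fold higher. fantom3_2810489O06, named for Lhfp, a tetraspan membrane protein gene, had 2.54 RPKM in oil and 21.7 RPKM in CCl4, 8.53-fold higher (log2 ratio 3.09). fantom3_1100001A16, named for the sphingosine-1-phosphate receptor gene S1pr2, had 1.57 and 8.71 RPKM, 5.56-fold higher (2.47). Rises met the limit of 5 RPKM through their CCl4 value, so their low oil values are not read as a result. fantom3_2210409H10, named for 4930404N11Rik, had 2.51 RPKM in oil and 14.9 RPKM in CCl4, 5.95-fold higher (2.57).

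The mRNA entries of these genes rose as well. Lhfp mRNA had 3.53 RPKM in oil and 30.02 RPKM in CCl4, with the same log2 ratio of 3.09 as its clone. S1pr2 mRNA had 1.91 and 9.43 RPKM, and the 4930404N11Rik entry 5.06 and 27.1 RPKM. Srpx2 mRNA was listed at 0 in oil and had 3.67 RPKM in CCl4, less than its clone.

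The other 4 rises could not be tied to a single gene. fantom3_2210406K15 had 3.66 RPKM in oil and 21.9 RPKM in CCl4, 5.98-fold higher. fantom3_1110004B06, whose name is a synonym of several genes, had 2.02 and 14.0 RPKM, 6.92-fold higher. fantom3_2700047H13 had 2.79 and 15.2 RPKM, 5.47-fold higher. All 3 had a value in both libraries, so their ratios are not bounds. fantom3_1500032O09 of the cerebellum series was listed at 0 in oil and had 6.58 RPKM in CCl4, at least 6.58-fold higher.

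The largest fall was that of fantom3_2810007J24, named for the hepatic sulfotransferase gene Sult2a8, with 93.1 RPKM in oil and 8.44 RPKM in CCl4, 11.03-fold lower (log2 ratio -3.46). Sult2a8 mRNA had 119 RPKM in oil and 11.9 RPKM in CCl4 (-3.32). fantom3_2410041F14, named for Mcm10, a DNA replication factor, had 32.2 RPKM in oil and 4.66 RPKM in CCl4, 6.90-fold lower (-2.79). Mcm10 mRNA had 11.4 and 2.35 RPKM (-2.27), so the clone and the mRNA were both lower while the 4 proliferation genes were higher. fantom3_1810008I18, a lncRNA gene named after the clone itself, had 51.8 RPKM in oil and 14.0 RPKM in CCl4, 3.69-fold lower. fantom3_1700008N02, named for Ttc39c, had 33.2 and 9.19 RPKM, 3.61-fold lower, beside 107 and 35.5 RPKM for the mRNA.

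Falls among clones without a gene name included abundant ones. Beside fantom3_2510038C20 and fantom3_1810074C23, fantom3_1110020O19 had 333 RPKM in oil and 55.2 RPKM in CCl4, 6.03-fold lower. fantom3_1810021N14 of the pancreas series had 47.7 and 11.05 RPKM, 4.32-fold lower. The small intestine clones fantom3_2010001E04, fantom3_2010109N18 and fantom3_2010300E12 shared 6.88 RPKM in oil and were listed at 0 in CCl4, at least 6.88-fold lower. They count as 1 observation.

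**Figure D4:**
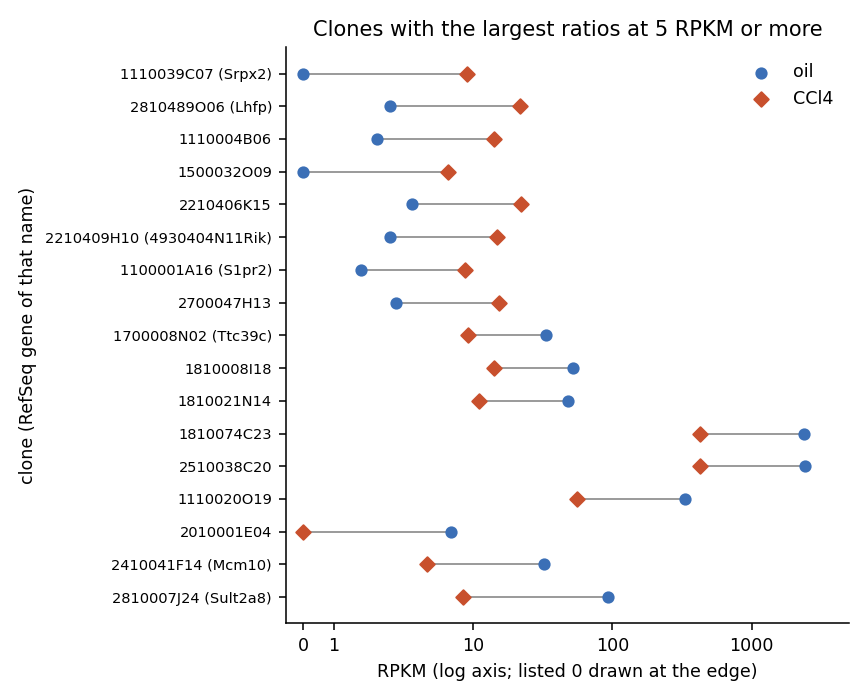
RPKM in oil (circles) and CCl4 (diamonds) on a log axis for the clones with the largest ratios among those with at least 5 RPKM in a library, with the RefSeq gene of that name in brackets. Values listed at 0 are drawn at the left edge, and fantom3_2010001E04 stands for the 3 clones with the same values. The limit of 5 RPKM is met by rises through their CCl4 value and by falls through their oil value, so the oil levels of the rises and falls are not compared.

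Clone names matched RefSeq genes of all kinds. By name, 1101 clones (32.9%) belonged to protein-coding genes, 602 (18.01%) to lncRNA genes and 15 to transcribed pseudogenes, 6 matched several genes and 1614 (48.3%) none. Of clones named for protein-coding genes 62.7% were detected in oil and 69.2% in CCl4, and of the 6 that matched several genes 5 were detected in each library. Clones named for lncRNA genes were detected at 14.0% and 16.6%, and clones without a gene at 38.7% and 42.9%. The order held without the testis series, with 65.4% in oil for protein-coding, 47.5% for no gene and 26.0% for lncRNA genes. Among compared clones, 93 of 776 protein-coding were higher and 18 lower, 13 of 107 lncRNA higher and 7 lower, and 86 of 713 without a gene higher and 36 lower. The shares of higher clones (11.98%, 12.1% and 12.1%) were alike in the 3 kinds and near the 10.9% of all lncRNA entries, and those of lower clones were 2.32%, 6.54% and 5.05%, beside 3.54%.

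Most clones named for a protein-coding gene went with its mRNA. For 654 clones of 627 genes, clone and mRNA were detected in both libraries, and 592 (90.5%) had log2 ratios of the same sign. The differences between the 2 ratios had a median size of 0.11, 76.1% were within 0.25, and 4 exceeded 1. Across these clones the ratios had a Pearson r of 0.92 and a Spearman rho of 0.89, given as a description, because clone and mRNA were measured in the same libraries and may share reads. Levels went together less closely (Pearson r of 0.76 on the log2 scale), and 200 of the 654 clones were above their mRNA. Strand handling in the counting is not given in the sources used here, so reads of a clone and of an overlapping mRNA cannot be told apart. Of 91 higher clones with a compared mRNA, the mRNA was also at least 2-fold higher for 69 and lower for none, and of 18 lower clones it was lower for 14 and higher for none. Of 641 clones called neither way, the mRNA was higher for 27 and lower for 8. Over all mRNA entries the shares were 16.6% higher and 5.22% lower.

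**Figure D5:**
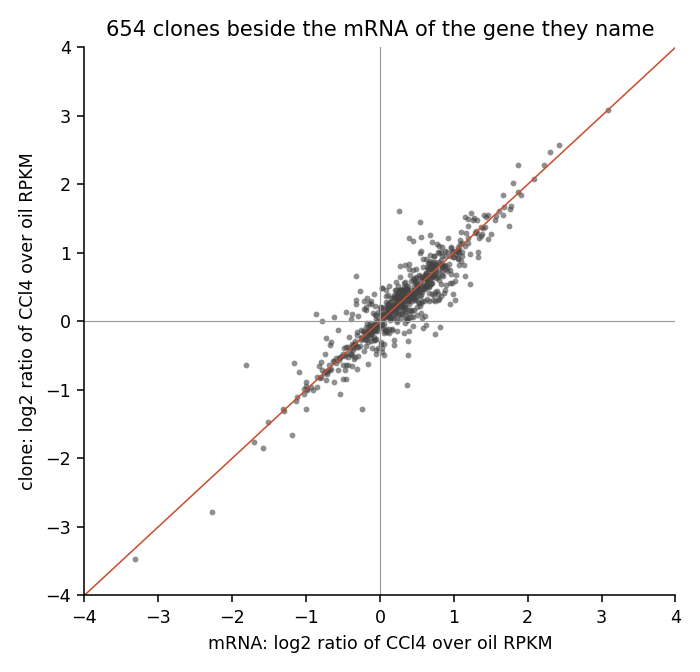
Log2 ratio of CCl4 over oil RPKM for 654 clones (vertical axis) against that of the mRNA of the protein-coding gene they name (horizontal axis), both detected in both libraries. The red line marks equal ratios. Most points lie close to it, and 4 lie more than 1 away.

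The 6 clones with a gene name and the highest mean RPKM over both libraries had 1 call among them. fantom3_2210401K01, named for the nuclear lncRNA Malat1, had 920 RPKM in oil and 940 RPKM in CCl4 (log2 ratio 0.03, and -0.29 relative to the median mRNA). fantom3_2210416J04, of the respiratory chain gene Uqcrh, had 186 and 139 RPKM, and fantom3_2010301L15, of the ATP synthase gene Atp5md, 123 and 80.5 RPKM. fantom3_2700024H10, of the phosphatase inhibitor gene Arpp19, had 110 and 127 RPKM (0.21, and -0.12 relative to the median mRNA). fantom3_2210411K19, of the ribosomal protein gene Rpl41, had 83.6 and 140 RPKM. A clone's level need not be that of its gene. Arpp19 mRNA had 7.02 RPKM in oil and 8.69 RPKM in CCl4, under its clone, and Rpl41 mRNA 874 and 1485 RPKM, above its clone. None of these 5 clones differed 2-fold. fantom3_2700012J19, of the lysosomal cholesterol transporter gene Npc2, did, with 63.2 RPKM in oil and 184 RPKM in CCl4 (2.90-fold higher), beside 24.5 and 72.7 RPKM for its mRNA.

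Clones of lncRNA genes could be set beside RefSeq entries of the same gene. Of the 107 compared clones of this kind, 88 had such an entry in the lncRNA table, and 62 were detected in both libraries by both. Their log2 ratios differed by a median of 0.03, and 87.1% were within 0.25. This too is a description of the same libraries and possibly the same reads, and levels could differ, as for fantom3_2900060B14 with 18.1 RPKM in oil beside 4.45 RPKM for its RefSeq entry. fantom3_1810008I18 and its RefSeq entry had the same values.

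Among the 20 called clones of lncRNA genes, the following were picked after their values were seen. fantom3_1110050K14, named for Fendrr, the lncRNA transcribed divergently from Foxf1 that the study followed, was listed at 0 in oil and had 2.01 RPKM in CCl4, at least 2.01-fold higher. The RefSeq entry of Fendrr was listed at 0 in oil and had 2.37 RPKM in CCl4. Both entries were thus detected in CCl4 alone, and close to the threshold. The call of the Fendrr clone was lost after scaling to the median mRNA (log2 ratio 0.68) and with a floor of 2 RPKM (0.01). fantom3_0610008F07, named for Hnf4aos, the antisense transcript of the hepatocyte factor gene Hnf4a, had 3.59 RPKM in oil and 1.20 RPKM in CCl4, 2.98-fold lower, a call lost with a floor of 2 RPKM (log2 ratio -0.84). The Hnf4a mRNA had 149 and 50.1 RPKM. fantom3_0610005C13 of the kidney series had 51.8 and 18.4 RPKM, 2.82-fold lower.

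Small nucleolar RNA host genes, whose introns carry snoRNAs, were taken by the symbol Snhg and contributed 4 of the higher clones. Host genes under other symbols are not counted here. fantom3_1700072N11, named for Snhg9, had 7.63 RPKM in oil and 17.6 RPKM in CCl4, and fantom3_2810008D09, named for Snhg20, 6.50 and 13.4 RPKM. fantom3_0610007N19 (Snhg18) was listed at 0 in oil and had 3.78 RPKM in CCl4, and fantom3_2610002F03 (Snhg7) was listed at 0 and had 2.07 RPKM. Relative to the median mRNA only Snhg18 of these 4 kept its call (log2 ratio 1.59), with 0.88 for Snhg9, 0.72 for Snhg20 and 0.73 for Snhg7. With a floor of 2 RPKM Snhg18 (0.92) and Snhg7 (0.05) lost it. This family was picked after its values were seen, so nothing is read from 4 of its 8 compared clones beside the 10.9% of all lncRNA entries. Its other clones did not reach 2-fold. fantom3_2010109N14 (Snhg8) had 14.5 and 16.0 RPKM, fantom3_1110008H02 (Snhg6) 7.75 and 10.6 RPKM, fantom3_2310005L22 (Snhg12) 5.12 and 6.38 RPKM and fantom3_2810026P18 (Snhg5) 3.96 and 4.13 RPKM. fantom3_2310043N10, named for the paraspeckle lncRNA Neat1, had 109 RPKM in oil and 58.5 RPKM in CCl4, 1.87-fold lower and short of a call (log2 ratio -0.90), which it passed relative to the median mRNA (-1.23).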

How the data were processed

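Total RNA of isolated hepatocytes was sequenced as 2 libraries (oil and CCl4, 1 each). The submitters' processing notes name CASAVA 1.4, TopHat2 and the mm10 build. The counting program, annotation version and strand setting are not given in the sources used here. The authors deposited RPKM values for annotated lncRNAs and mRNAs with values under 1 RPKM listed as 0. This was checked on 1443 new lncRNAs, for which the authors also deposited read counts and all RPKM values: all 1354 oil and 1347 CCl4 values under 1 were listed as 0. The deposited log2 change, p-value and q-value columns hold the authors' own comparison and were not used. Depth per library was derived from the deposited counts, lengths and RPKM of the new lncRNAs, and counting intervals rest on it.

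Members and lists were chosen with earlier results of these data known. Clones were called at an absolute log2 ratio of at least 1 with values under 1 RPKM set to 1 RPKM. Clone names followed by Rik were matched to symbols and synonyms of a RefSeq gene table (GRCm38.p6), a naming link and not an alignment. The mRNA of a gene was its entry with the highest mean RPKM (27049 of 27457 mRNA entries had a symbol). Named were the 10 most abundant clones of each library and the 8 largest ratios in each direction at 5 RPKM or more. Among these ratios, clones with identical values counted once. The most abundant clone by mean RPKM of each plate series with at least 20 compared clones was also named. Of clones with a gene name, the 6 most abundant and the 4 largest ratios in each direction were named. Others are said to be picked later. Alternatives were other pseudocounts and floors, scaling to the median mRNA, stricter thresholds and counting identical values once. The ratio step was tested on simulated data. Python 3.11.15, numpy 2.4.6, pandas 2.3.3, scipy 1.17.1 and matplotlib 3.10.9 were used.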

Additional observations from a re-analysis of the deposited data

How the results depend on the processing

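With 0.1 RPKM added to both values and a listed 0 kept, which changed 2 choices at once, the 193 higher clones became 330. They became 121 with a floor of 2 RPKM, 95 after scaling to the median mRNA and 21 at a log2 ratio of 2. Among clones with 5 RPKM in a library they were 101. Among clones matched to no RefSeq gene, an alternative chosen after seeing the data, they were 86. The 61 lower clones became 92 with 0.1 RPKM added and a listed 0 kept. They became 116 after scaling, 10 at a log2 ratio of 2 and 36 without a gene. After scaling, 5.92% of clones were higher and 7.23% lower, beside 5.19% and 7.22% of all lncRNA entries. For the other pseudocounts, floors and stricter thresholds no share of all lncRNA entries is given here. Those counts are therefore not compared with a background. At 2 RPKM, 33.2% of clones were detected in oil and 37.6% in CCl4. At 1 RPKM the CCl4 share of 46.7% became 44.1% after scaling. The median log2 ratio of 0.30 turned to -0.027 after scaling and was 0.15 among clones with 5 RPKM in both libraries. Of 176 values of the 44 named clones under 4 alternatives, 3 small ones changed sign, all after scaling (fantom3_2210401K01, fantom3_2700024H10 and fantom3_2900019G12). The direction of the median and the balance of calls therefore depended on the scaling. No paired analysis was possible because each group had 1 library, and for the same reason no library could be left out. Depth limited clones near 1 RPKM most.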

Other observations

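A few clones parted from the mRNA of the gene they name, and these were picked after their values were seen. fantom3_2810017I02, named for the nuclear matrix gene Matr3, had 2.29 RPKM in oil and 6.97 RPKM in CCl4 (log2 ratio 1.61), whereas Matr3 mRNA had 11.2 and 13.5 RPKM (0.26). fantom3_2210013N15, named for Pnkd, had 11.1 and 5.82 RPKM (-0.93), whereas the mRNA had 15.8 and 20.3 RPKM (0.36). fantom3_2900074L10, named for the interferon-inducible GTPase gene Iigp1, had 6.06 and 3.89 RPKM (-0.64), and the mRNA 84.9 and 24.3 RPKM (-1.81).

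The following called clones with a protein-coding name were also picked after their values were seen. fantom3_2610511G02, named for Lpin2, a phosphatidate phosphatase gene, had 41.0 RPKM in oil and 14.9 RPKM in CCl4. fantom3_2900053I11, named for the sterol regulator Insig2, had 70.0 and 28.9 RPKM, and fantom3_1110065P19, named for the secreted peptide gene Enho, 26.8 and 7.87 RPKM. fantom3_2900019G14, named for the glutamate transporter gene Slc1a2, had 4.93 RPKM in oil and was listed at 0 in CCl4, beside 23.2 and 1.03 RPKM for the mRNA. Higher clones included fantom3_2310075M15, named for the matrix peroxidase gene Pxdn, with 6.17 and 22.9 RPKM, fantom3_1810074K20, named for the angiotensin receptor gene Agtr1a, with 8.36 and 24.5 RPKM, and fantom3_2310075E07, named for the caveolar gene Cavin1, with 4.96 and 14.5 RPKM.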
